A study of Homo sapiens with 12 samples.

Results

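The comparison described here set human bronchial epithelial cells (HBEC) carrying L858R EGFR against the same kind of cells carrying wild-type (WT) EGFR, both after 24 h at 0.1% oxygen. Its members were chosen by title alone and are 4 of the 12 arrays of the series, 2 for L858R at 0.1% oxygen and 2 for WT at 0.1% oxygen. HBEC are cells of the airway lining, and the line expressed 1 of 3 forms of EGFR stably: WT, L858R, or a form the labels call E746-E750 after a stretch of kinase residues. Each form was studied at 21% oxygen (aerobic) and at 0.1% oxygen (hypoxic), which made 6 groups of 2 Illumina bead arrays. All cells grew in a serum-free keratinocyte medium that contained EGF and pituitary extract, so the receptor's ligand was present in every group. The labels give neither the promoter that drove the added EGFR nor whether a line was 1 clone, and they are silent on whether the 2 samples per group were grown as separate cultures. P-values therefore cover only the spread between the 2 samples of a group, estimated over all 6 groups with a weight for each. That spread may be technical. The series' title asks about EGFR mutations, radiation resistance under hypoxia, and how breaks at replication forks are repaired.

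EGFR is a receptor tyrosine kinase that passes the signal of EGF and its relatives to the RAS-ERK and PI3K-AKT pathways, and L858R is a substitution in its kinase domain, known from lung adenocarcinoma, that keeps the kinase active. Low oxygen stabilises the HIF transcription factors, which switch on genes for glycolysis, vessel growth and matrix remodelling. Severe hypoxia also disturbs protein folding in the endoplasmic reticulum (ER), where the sensors IRE1, PERK and ATF6 start the unfolded protein response, which raises ER chaperones and the machinery that degrades misfolded proteins.

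The L858R hypoxic pair was the noisiest pair of the series. Over 11926 genes the correlation between its 2 arrays was 0.852, against 0.985 to 0.997 in the other 5 pairs, and 29.8% of genes differed by over 2-fold within it, against at most 1.56% in any other pair. L858R hypoxic replicate 2 had 14159 of 47323 probes detected and an upper quartile of raw intensity of 128, while the other 11 arrays had 16485 to 18229 detected probes and upper quartiles of 157 to 207. All 12 arrays were on 1 slide. The fit gave each group its own spread, and the L858R hypoxic pair had a weight of 0.0667 against 0.779 to 2.92 in the other groups. Basal epithelial markers such as KRT5 and ITGA6 were present, with 8 of the 9 measured on the platform detected on all 4 arrays and a summed normalized intensity of 29092 to 32644 in WT and 18062 to 49405 in L858R. Of 11 leukocyte markers 6, PTPRC and CD3E among them, were detected on none of the 4 arrays and 3, CD2, CD14 and CD68, on all 4, with a sum of 2263 to 2539 in WT and 1802 to 3836 in L858R. Of 10 endothelial markers 8 were detected on none, CDH5 and VWF included, with a sum of 652 to 663 in WT and 648 to 726 in L858R.

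Values are normalized log2 intensities, differences are L858R minus WT at 0.1% oxygen with the standard error of the limma fit, and n = 2 arrays in each group throughout. A gene was called when its p-value, adjusted by Benjamini-Hochberg over all 11926 genes, was under 0.05. By this rule 153 genes (1.28%) were called, 52 higher (0.436%) and 101 lower (0.847%) in the L858R cells, against 1700 genes with an unadjusted p under 0.05. All 153 differed by over 2-fold and had both L858R arrays beyond both WT arrays, a separation that 31.9% of all genes showed upward and 18.8% downward. With 1 spread for all groups the count was 2595 genes (21.8%), 1624 higher (13.6%) and 971 lower (8.14%), and all 153 were among them. Median centring in place of quantile normalization called 246 genes, of which 51.2% were higher, against 34% by the main rule, and 148 of the 153 were among them. The median difference over all genes was 0.13. In RNA of whole cultures fewer expressing cells and less RNA per cell cannot be told apart.

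**Figure D1:**
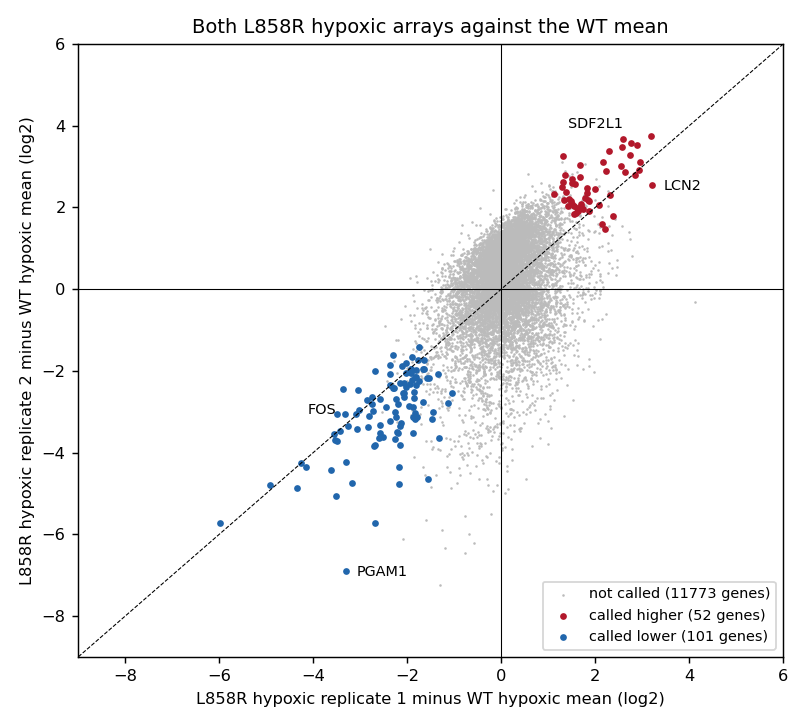
Difference from the WT hypoxic mean on L858R hypoxic replicate 1 (x axis, log2) and replicate 2 (y axis, log2), 1 point per gene, with the 52 genes called higher in red and the 101 called lower in blue. The called genes lie on the same side of 0 on both arrays, some of them further out on replicate 2, such as PGAM1 at -3.31 and -6.89, and 2275 genes are over 2-fold above WT on replicate 2 against 758 on replicate 1.

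Taken 1 at a time, the L858R arrays gave unequal numbers. Replicate 1 was over 2-fold above the WT mean for 758 genes and replicate 2 for 2275, with 308 genes above on both. Below the WT mean by over 2-fold were 549 genes on replicate 1 and 1575 on replicate 2, with 322 below on both, and 87 genes moved in opposite directions by that margin. The fit without L858R replicate 2 called 5021 genes and the fit without replicate 1 called 8466. In each of these fits the lone array has no spread of its own and is given that of the other groups. The counts thus hold no account of the spread between the L858R arrays.

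Some genes have more than 1 probe on the array, which gives a second reading of the gene. Whether such probes read the same transcript was not analysed here. Of 3213 genes with at least 2 kept probes, 22 (0.685%) had at least 2 probes past the threshold in the same direction and none with the opposite sign, 4 of them higher (0.124%) and 18 lower (0.560%). The 4 higher genes were AGR2, CEACAM1, POGLUT1 and DYRK3, and all of their kept probes passed.

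AGR2, an ER protein disulfide isomerase needed for mucin production, read 9.42 and 9.69 on the WT arrays and 12.31 and 13.13 on the L858R arrays. The L858R arrays lay well above WT on both, by 3.16 ± 0.45 (adjusted p = 0.00352), and the second probe gave 3.07 ± 0.48. CEACAM1, a cell adhesion molecule of epithelial surfaces, read 7.09 and 7.33 in WT and 9.50 and 10.60 in L858R. Its difference was 2.84 ± 0.43 (adjusted p = 0.00472), and the dimmer probe gave 1.97 ± 0.43. POGLUT1, an ER enzyme that adds glucose to the EGF-like repeats of Notch, read 9.78 and 10.02 in WT and 11.73 and 12.37 in L858R. It was higher by 2.15 ± 0.45 (adjusted p = 0.0303), with 2.06 ± 0.42 on the second probe. DYRK3, a kinase that dissolves stress granules, read 7.10 and 7.45 in WT against 9.38 and 8.80 in L858R on its brightest probe. That probe missed the threshold over genes at 1.82 ± 0.43 (adjusted p = 0.0627), while over all probes both of its probes passed, at 1.82 and 1.95. None of these 4 overlapped between groups on either probe. Their aerobic differences between the same lines were 0.34, 0.38, 0.03 and 0.06 for AGR2, CEACAM1, POGLUT1 and DYRK3.

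Genes of the unfolded protein response and ER folding had the highest median difference of the 31 lists. Of 17 measured genes 4 were called higher and none lower, where 0.436% of all genes were called higher. The list's median difference was 1.39 against 0.13 over all genes, and it was high on each array alone, at 1.49 on replicate 1 and 1.11 on replicate 2. Both L858R arrays lay above both WT arrays for 11 of the 17, against 31.9% of all genes. With 1 spread for all groups 10 passed upward, where 13.6% of all genes did. Under the other settings, apart from those that left out 1 array, the median ranged from 1.28 to 1.86. In the same lines at 21% oxygen the list's median difference was -0.06.

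The 4 called genes act in the ER, 3 of them as partners of its chaperone BiP. SDF2L1, a cofactor of the ER chaperone BiP, read 9.43 and 9.81 in WT and 12.80 and 13.38 in L858R, a difference of 3.47 ± 0.57 (adjusted p = 0.00779). DNAJB9, a BiP co-chaperone that restrains IRE1, read 8.32 and 8.77 in WT and 11.44 and 12.08 in L858R, a difference of 3.21 ± 0.57 (adjusted p = 0.012). CRELD2, a secretory-pathway protein known as an ER stress marker, read 9.29 and 9.51 in WT and 12.33 and 12.32 in L858R, a difference of 2.92 ± 0.44 (adjusted p = 0.00472). DNAJB11, another BiP co-chaperone, read 10.67 and 10.85 in WT and 13.30 and 13.77 in L858R, a difference of 2.77 ± 0.37 (adjusted p = 0.00237). All 4 rest on 1 kept probe each, and in none did the groups overlap.

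The other 13 genes of the list did not pass. HSPA5, which encodes BiP itself, read 9.04 and 9.41 in WT and 10.67 and 11.34 in L858R, a difference of 1.77 ± 0.48 (adjusted p = 0.101). DNAJC3, an inhibitor of the PERK branch, read 6.42 and 6.61 in WT and 7.80 and 8.75 in L858R (1.76 ± 0.41, adjusted p = 0.0541). CANX, the lectin chaperone calnexin, read 9.46 and 9.85 in WT and 11.14 and 10.83 in L858R (1.33 ± 0.43, adjusted p = 0.173). In these 3 genes, too, both L858R arrays were above both WT arrays. MANF, a secreted ER stress factor, read 11.00 and 11.05 in WT but 13.81 and 11.83 on the 2 L858R arrays. HYOU1, an ER chaperone of the HSP110 class, read 7.42 and 7.69 in WT and 11.68 and 7.25 in L858R, so replicate 1 was far above WT and replicate 2 below it. CALR, the lectin chaperone calreticulin, split in the same way, at 10.67 and 10.86 in WT and 12.32 and 9.16 in L858R. PDIA6, a disulfide isomerase, read 10.79 and 10.89 in WT and 10.78 and 6.73 in L858R. For each of these 4 the lower L858R value came from replicate 2, whereas in HSPA5 and DNAJC3 replicate 2 gave the higher value. The reason was not tested.

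**Figure D2:**
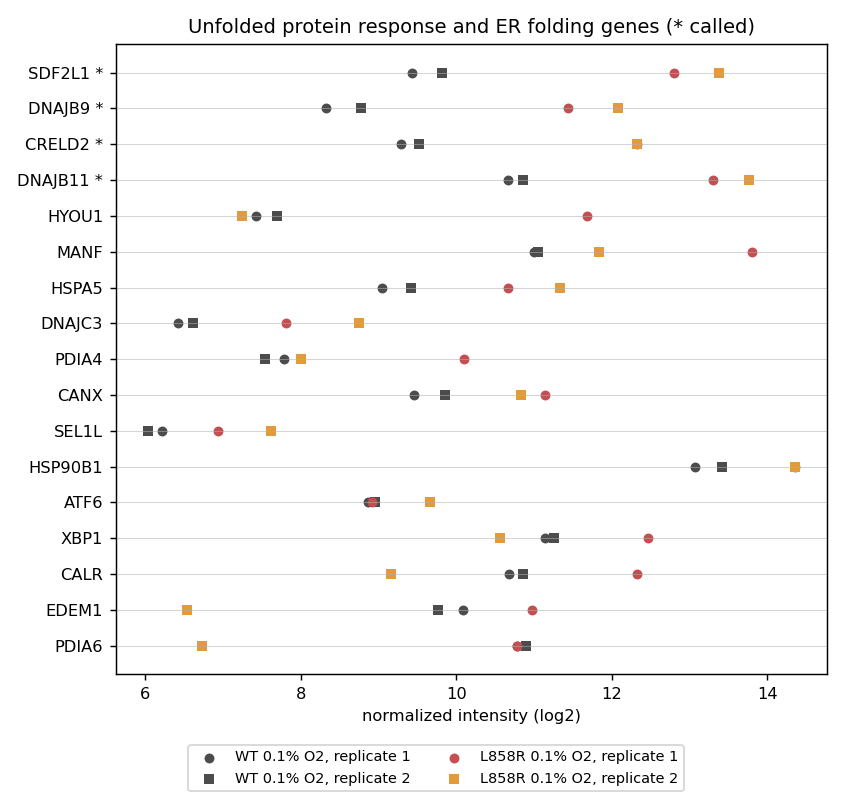
Normalized log2 intensity (x axis) of the 17 measured unfolded protein response and ER folding genes (rows, ordered by difference) on the WT and L858R arrays at 0.1% oxygen, 1 point per array. The 4 called genes, marked with a star, have both L858R arrays above both WT arrays. In HYOU1, MANF, PDIA4, XBP1, CALR, EDEM1 and PDIA6 the L858R arrays are far apart.

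The promoters of these genes are shown because ATF6 and XBP1, the transcription factors of the response, are known to act through the ER stress element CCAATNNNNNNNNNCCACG. It was searched on both strands of the 300-base promoter windows, 250 bases before to 50 after each RefSeq start (GRCh38.p14), and 27 of 35116 windows (0.0769%) held it. Of the 20 genes of the list 19 had a window, and 7 of these held the element: CALR, CANX, CRELD2, HSP90B1, HSPA5, PDIA6 and XBP1. The whole window is given for CRELD2, the called gene among them, at chr22:49918384-49918683 on the plus strand, and for HSPA5, at chr9:125241294-125241593 on the minus strand. The other 5 are given as the element with its neighbouring bases. Sequences run 5′ to 3′ on the gene's strand, and capitals mark the element, which is on the opposite strand in CRELD2 and CALR and so reads as its reverse complement there. HSP90B1 holds it a second time, on the opposite strand, and the first is shown.
CRELD2: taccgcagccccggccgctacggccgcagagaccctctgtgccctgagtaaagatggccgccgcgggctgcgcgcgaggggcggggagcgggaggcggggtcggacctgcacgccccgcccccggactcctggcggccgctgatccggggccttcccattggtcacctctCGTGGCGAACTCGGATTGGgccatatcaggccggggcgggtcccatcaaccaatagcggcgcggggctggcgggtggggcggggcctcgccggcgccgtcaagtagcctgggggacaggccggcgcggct
HSPA5: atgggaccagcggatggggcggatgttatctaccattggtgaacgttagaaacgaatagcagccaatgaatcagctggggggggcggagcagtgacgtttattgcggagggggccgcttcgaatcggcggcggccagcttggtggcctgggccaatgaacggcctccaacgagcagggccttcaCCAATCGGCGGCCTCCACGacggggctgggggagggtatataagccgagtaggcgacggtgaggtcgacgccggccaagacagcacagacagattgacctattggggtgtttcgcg
CANX: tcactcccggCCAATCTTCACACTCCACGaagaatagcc
HSP90B1: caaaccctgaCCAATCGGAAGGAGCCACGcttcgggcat
XBP1: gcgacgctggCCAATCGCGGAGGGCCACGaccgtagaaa
PDIA6: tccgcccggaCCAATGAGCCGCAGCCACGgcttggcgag
CALR: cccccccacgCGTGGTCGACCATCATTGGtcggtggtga
The element began 80 bases before the start in CRELD2 and 66 bases before it in HSPA5. The exact letters are not in the windows of SDF2L1, DNAJB9 and DNAJB11, the other called genes. The median difference was 1.11 over the 7 genes with the element and 1.78 over the 10 measured genes without it.

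Calls were also made among genes of the cornified layer and of mucosal defence. FLG, which encodes filaggrin of the skin barrier, was not detected on either WT array and read 8.81 and 9.91 in L858R, at least 7.70-fold higher (adjusted p = 0.00224). LCE1C, a late cornified envelope gene, read 6.4 on both WT arrays, near the detection level, and 9.34 and 9.51 in L858R (3.03 ± 0.51, adjusted p = 0.00953). LCE1B of the same family read 8.64 and 8.67 in WT and 11.02 and 10.43 in L858R (2.07 ± 0.42, adjusted p = 0.0266). The cornified list as a whole had 2 of 11 measured genes called higher and none lower, where 0.436% of all genes were called higher. Its median was 0.36, with 0.16 and 0.81 on the 2 arrays. Both L858R arrays lay above both WT arrays for 7 of the 11 and below them for 0, against 31.9% and 18.8% of all genes. SPRR1A and SPRR1B, small proline-rich envelope genes, were at -0.06 and 0.13, so not every member moved. SPRR2D of the same family was detected on neither WT array and read 7.39 and 7.55 in L858R, without a call. Markers of the deeper basal layer had a median of -0.09 with 0 of 9 called, and their medians on the 2 arrays were 0.72 and -0.58.

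Of 9 measured secretory and mucosal defence genes 1 was called higher and 1 lower, against 0.436% and 0.847% of all genes. LCN2, an iron-sequestering antibacterial protein, read 7.97 and 8.16 in WT and 11.28 and 10.62 in L858R (2.88 ± 0.45, adjusted p = 0.00571). SLPI, a secreted inhibitor of neutrophil elastase, read 10.62 and 10.55 in WT and 9.12 and 7.40 in L858R (-2.32 ± 0.48, adjusted p = 0.0298). Outside the list DMBT1, a mucosal scavenger receptor, read 7.58 and 7.45 in WT and 10.08 and 11.00 in L858R (3.03 ± 0.41, adjusted p = 0.00288). AKR1B10, an aldo-keto reductase among the targets of the antioxidant factor NRF2, read 6.75 and 7.04 in WT and 9.75 and 9.69 in L858R (2.83 ± 0.48, adjusted p = 0.00982). It was the 1 called gene among 17 NRF2 targets, where 0.436% of all genes were called higher, and the median of these targets was 0.41. In all 4 genes the 2 groups were apart on every array.

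The called genes that were lower in L858R were often near the background on the L858R arrays. Of the 101, 25 were detected on neither L858R array, 44 on 1 and 32 on both. All 52 genes called higher were detected on both, which a higher reading on these arrays favours by itself. On the WT arrays, where those genes read lower, 5 of the 52 were detected on neither. PGAM1, a glycolytic mutase, read 12.94 and 13.00 in WT and 9.66 and 6.08 in L858R (-5.10 ± 0.90, adjusted p = 0.0118). Its second probe went from 12.27 and 12.52 to 6.61 and 6.80. ENSA, an inhibitor of the phosphatase PP2A-B55 in mitosis, read 10.30 and 10.52 in WT and 6.78 and 6.0 in L858R (-4.02 ± 0.45, adjusted p = 0.00101), with -3.06 on the second probe. RPL29, a large-subunit ribosomal protein gene, read 10.55 and 10.88 in WT and 7.53 and 5.98 in L858R (-3.96 ± 0.68, adjusted p = 0.0102), with -3.73 on the second. RPS7, of the small subunit, read 10.97 and 11.27 in WT and 8.53 and 7.47 in L858R (-3.12 ± 0.56, adjusted p = 0.0138), with -3.81 on the second. In each of these genes both L858R arrays were below both WT arrays on both probes, and on at least 1 probe an L858R reading lay near the background. RPL29 and RPS7 belong to genes with many processed copies in the genome, and whether the probes also read these was not analysed here.

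RPL29 was the 1 gene called among 35 measured genes of the cytosolic ribosomal protein list, whose median was 0.03, where 0.847% of all genes were called lower. RPS7 is not on that list. PSMC4, an ATPase subunit of the proteasome cap, read 9.17 and 9.16 in WT and was detected on neither L858R array with any of its 3 probes. It was at least 6.19-fold lower on the brightest (adjusted p = 0.00224) and at least 4.54-fold and 3.79-fold lower on the others. PEDS1-UBE2V1, a read-through of a plasmalogen desaturase and a ubiquitin-conjugating enzyme variant, read 9.91 and 9.96 in WT and 7.26 and 6.12 in L858R (-3.25 ± 0.44, adjusted p = 0.00288), and its probes may read the parent gene UBE2V1. SCAND1, a SCAN-domain protein, read 10.31 and 10.73 in WT and 8.36 and 6.70 in L858R (-3.0 ± 0.57, adjusted p = 0.0198). SNX5, a sorting nexin of the endosome, read 9.82 and 9.81 in WT and 8.73 and 6.15 in L858R on the brightest probe, which missed the threshold over genes (-2.38 ± 0.58, adjusted p = 0.0658). Its other probe went from 9.93 and 10.81 to 6.70 and 6.13. The groups of all 4 genes were apart on every probe that passed.

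**Figure D3:**
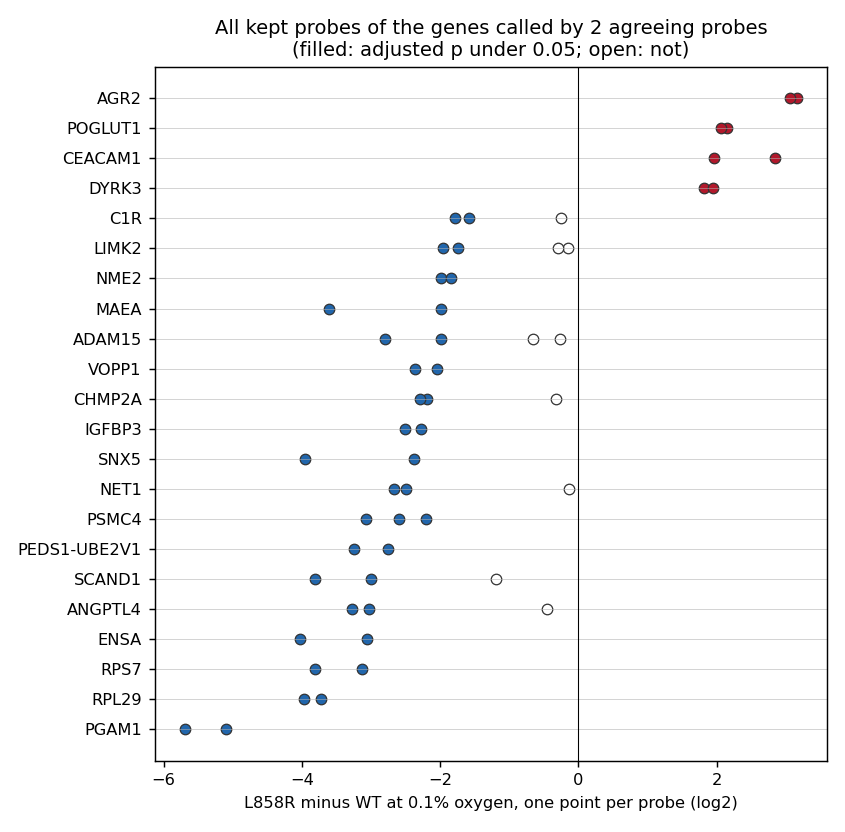
L858R minus WT at 0.1% oxygen (x axis, log2) for every kept probe of the 22 genes called by 2 agreeing probes (rows), 1 point per probe, filled where the probe passed and open where it did not. All points of AGR2, POGLUT1, CEACAM1 and DYRK3 are filled, while ANGPTL4, NET1, CHMP2A, LIMK2, ADAM15 and C1R have at least 1 open point near 0.

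Agreement of 2 probes did not always extend to the third. ANGPTL4, a secreted lipase inhibitor and HIF target, had 2 probes that passed, at -3.28 ± 0.78 and -3.03 ± 0.53. Its brightest probe read 14.27 and 14.11 in WT and 13.36 and 14.10 in L858R (-0.46 ± 0.51, adjusted p = 0.761). NET1, a RhoA exchange factor, had 2 probes at -2.67 and -2.49 and a brightest probe at 11.34 and 11.33 in WT and 10.81 and 11.59 in L858R (-0.14). For 26.1% of the 3213 genes with at least 2 kept probes the L858R minus WT differences of the 2 brightest probes were over 1 apart. The share was 16.2% on L858R replicate 1 alone and 45.9% on replicate 2 alone, and 0.187% for the same lines at 21% oxygen. For E746-E750 against the same WT hypoxic arrays it was 21.6%. ACTB, the actin gene used as a loading control, had 1 probe at 13.96 and 13.88 in WT and 8.31 and 6.66 in L858R, while its other 2 probes differed by -0.10 and 0.08. Of 16023 named probes 781 were detected on both WT hypoxic arrays and on neither L858R hypoxic array, and 367 of these belonged to genes with another probe detected on both L858R arrays. The opposite pattern was seen for 358 probes. Where on the transcript these probes lie was not analysed here, and the part of RNA quality or labelling in the lower calls was not tested.

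Second probes of the called genes were compared with the first. Of the 101 genes called lower, 53 had a second kept probe, which had the same sign in 47 and passed in 13. The median over these second probes was -1.04, against -2.64 over the first. Of the 52 called higher, 13 had a second probe, with the same sign in 7 and a pass in 3. Over all genes 60.3% had a difference above 0, and 7 of 13 is not above that share. For these 13 genes the median was 0.45 over the second probes, against 1.80 over the first. The 5 lowest called genes with a single probe were AP1S1, RNA18SN5, FADS2, TNFRSF12A and ANXA8L1. AP1S1, a clathrin adaptor subunit, read 10.57 and 11.09 in WT and 6.49 and 5.97 in L858R. The 18S ribosomal RNA gene RNA18SN5 read 12.05 and 11.69 in WT and 8.36 and 6.79 in L858R. TNFRSF12A, the receptor for TWEAK, read 10.24 and 10.41 in WT and 7.03 and 6.09 in L858R. FADS2, a fatty acid desaturase, was at least 15.2-fold lower and ANXA8L1, an annexin, at least 10.4-fold lower, each detected on neither L858R array. Their adjusted p-values in limma were 0.002 to 0.00779. Having 1 kept probe each, these 5 have no second reading, and ANXA8L1 has a near-identical copy, ANXA8, which its probe may read as well.

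Immediate early genes, which respond to EGFR-ERK signalling within minutes, held 3 calls, all lower. These were 3 of 22 measured genes of the list that joins them with ERK outputs, where 0.847% of all genes were called lower. FOS, a subunit of the AP-1 factor, read 12.15 and 11.99 in WT and 9.03 and 9.11 in L858R, where the 2 L858R readings lay close together (-3.0 ± 0.51, adjusted p = 0.00953). EGR1, a zinc finger factor, read 11.68 and 11.80 in WT and 9.86 and 8.21 in L858R (-2.70 ± 0.53, adjusted p = 0.0213). DUSP1, a phosphatase that switches MAP kinases off, read 13.35 and 13.31 in WT and 11.88 and 10.32 in L858R (-2.23 ± 0.49, adjusted p = 0.0381). All 3 were detected on every array and rest on 1 probe each. The whole list had a median of -0.24, with -0.62 on replicate 1 and -0.13 on replicate 2. Both L858R arrays were below both WT arrays for 10 genes and above them for 1, against 18.8% and 31.9% of all genes. The feedback genes DUSP6 on its brighter probe, SPRY2 and SPRED1 were at 0.08, -0.19 and 0.50, with replicate 1 below and replicate 2 above the WT mean in each. The second DUSP6 probe went from 7.64 and 7.67 in WT to 6.05 and 5.80 in L858R, where it was detected on neither array (adjusted p = 0.069 over all probes), so the probes of DUSP6 differed.

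EGFR itself was measured by 2 probes that differed. The brighter read 11.05 and 10.73 in WT and 9.91 and 11.12 in L858R, so the groups overlapped (-0.37 ± 0.51, adjusted p = 0.828). The other read 10.51 and 10.62 in WT and 7.69 and 8.84 in L858R (-2.30 ± 0.42, adjusted p = 0.011 over all probes), and its difference at 21% oxygen was -1.0. Which of them reads the added EGFR, the cell's own or both was not analysed here, so neither checks the labels. Of 11 measured genes of the EGFR family, its ligands and its brakes none was called, and their median was -0.04.

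Among the HIF targets there was 1 call between the lines. Of 25 measured, 1 was called lower, where 0.847% of all genes were, and none higher, with a median of -0.04 against 0.13 over all genes. ANKRD37, an ankyrin-repeat HIF target, read 12.79 and 12.73 in WT and 11.71 and 10.21 in L858R (-1.80 ± 0.40, adjusted p = 0.0437). LOX, which cross-links collagen, read 11.65 and 11.72 in WT and 9.49 and 10.43 in L858R (-1.73 ± 0.41, adjusted p = 0.0627). VEGFA, the vessel growth factor, had both groups overlap on the brighter probe, at 11.03 and 10.94 in WT and 10.99 and 12.13 in L858R (0.57 ± 0.43, adjusted p = 0.599), and its second probe gave 0.50 ± 0.35. Glycolysis and glucose uptake genes had 1 of 22 called, PGAM1, and a median of -0.44, which was 0.04 on replicate 1 and -0.68 on replicate 2. These list counts rest on 1 probe per gene, and some other probes read far lower. For ALDOA 1 probe read 14.53 and 14.55 in WT and 6.85 and 7.24 in L858R, while the other gave -1.39. For PKM 1 probe was detected on neither L858R array, while the others gave 0.52 and -2.03. The same held for P4HA2, whose other probes gave -0.77 and 0.19.

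IGFBP3, which binds insulin-like growth factors outside the cell, falls outside the rule by which genes were named and was chosen after its values were seen, because both of its probes passed and stayed bright. The first read 12.91 and 12.86 in WT and 11.00 and 9.75 in L858R (-2.51 ± 0.46, adjusted p = 0.0164). The second read 12.60 and 12.62 in WT and 10.66 and 10 in L858R (-2.28 ± 0.37). All 4 arrays were thus well above the aerobic readings of 6.67 to 6.91 on the first probe, and the L858R arrays lay between these and WT. The E746-E750 hypoxic arrays read 12.94 and 13.25 on it, at or above WT.

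The genes of DNA repair and replication that the series' title points to held no call, where 1.28% of all genes were called, so lists of this size hold few or none at that share. Of 23 homologous recombination and Fanconi anaemia genes none was called and the median was 0.31, with 0.05 on replicate 1 and 0.43 on replicate 2. With 1 spread for all groups 2 passed upward and 1 downward. BRCA1, a tumour suppressor of homologous recombination, read 7.28 and 7.52 in WT and 7.32 and 8.35 in L858R, so the groups overlapped (0.43 ± 0.40, adjusted p = 0.697), and its second probe gave 0.55 ± 0.37. Medians were 0.10 over 10 non-homologous end joining genes, 0.16 over 42 DNA replication genes, 0.23 over 12 replication stress checkpoint genes and -0.08 over 28 mitosis genes, with 0 called in each. The 18 p53 targets had a median of 0.53 and no call. At this spread between the L858R arrays the smallest called difference was 1.58 on the log2 scale, and no smaller difference passed.

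**Figure D4:**
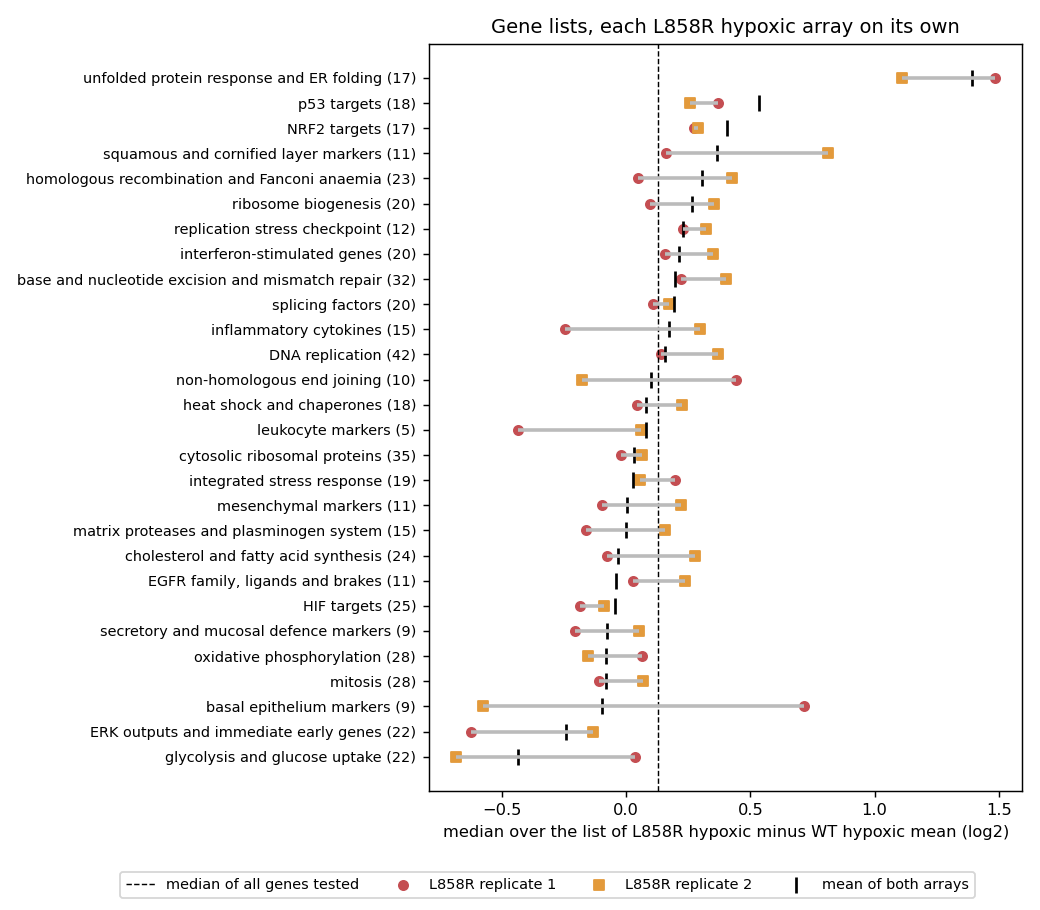
Median of L858R minus the WT hypoxic mean (x axis, log2) over each gene list with at least 5 measured genes (rows, number in brackets), for L858R replicate 1, replicate 2 and their mean, with the median of all genes as a dashed line. The unfolded protein response list is at 1.49 and 1.11, and the basal epithelium list lies at 0.72 on 1 array and -0.58 on the other.

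Whether the difference between the lines depended on oxygen was tested as the hypoxic difference minus the aerobic one. This passed for 206 genes (1.73%), 80 upward (0.671%) and 126 downward (1.06%), and for 45 of the 52 genes called higher and 86 of the 101 called lower. Those genes were selected on the hypoxic difference, which this test contains, so these counts are largely fixed by the selection. Across the 11926 genes, which are not independent replicates, the hypoxic and aerobic differences had a correlation of 0.003. SDF2L1 had both lines alike at 21% oxygen, at 11.35 and 10.90 in WT and 11.39 and 11.32 in L858R. Its WT cells thus read lower at 0.1% oxygen than at 21%, and its L858R cells higher. DNAJB11 was at 12.02 and 11.93 in aerobic WT and 11.82 and 11.79 in aerobic L858R, and CRELD2 at 10.90 and 10.72 against 10.62 and 10.54, with the same order of the 4 groups in both. DNAJB9 read 8.18 and 8.53 in aerobic WT, close to hypoxic WT, and 8.11 and 7.96 in aerobic L858R. FOS read 10.05 and 10.34 in aerobic WT and 10.59 and 10.52 in aerobic L858R, so it was higher in hypoxic than aerobic WT and lower in hypoxic than aerobic L858R. AKR1B10 was already higher in L858R at 21% oxygen by 0.92 (adjusted p = 7.5e-05), and its difference between oxygen levels did not pass (1.90 ± 0.49, adjusted p = 0.075).

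**Figure D5:**
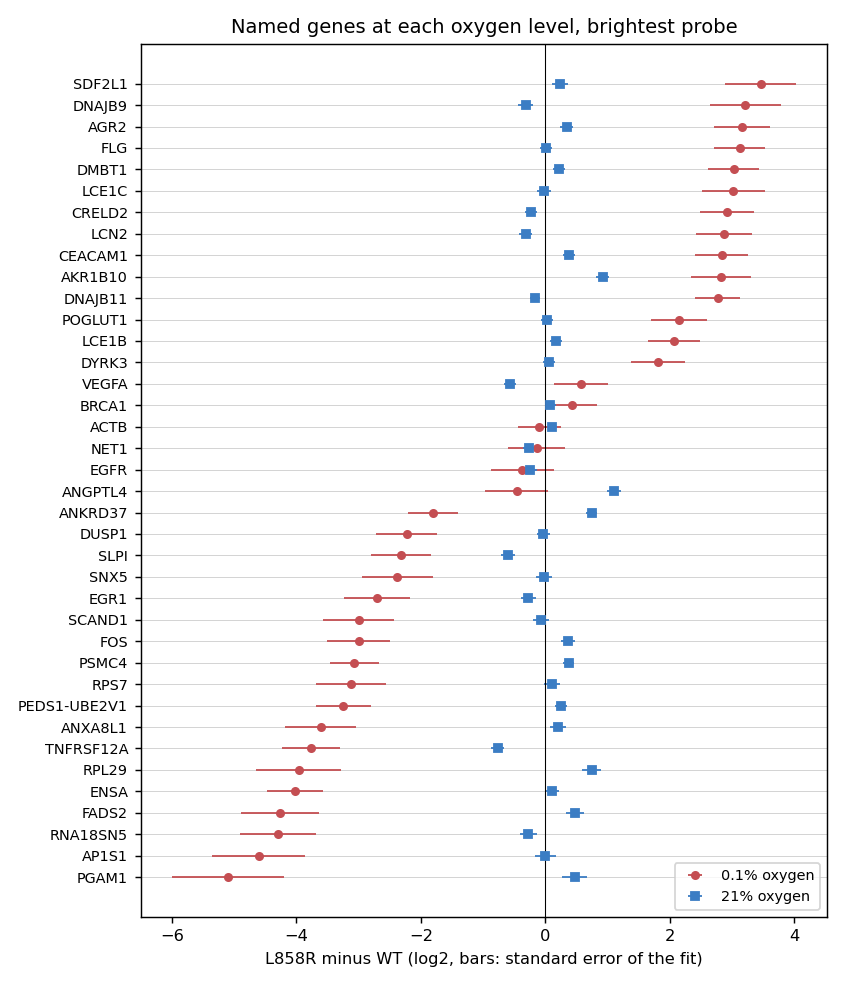
L858R minus WT (x axis, log2, bars are the standard error of the fit) for the named genes (rows) on their brightest probe, at 0.1% oxygen in red and at 21% oxygen in blue. The aerobic points lie between -0.76 and 1.11, while the hypoxic points run from -5.10 to 3.47.

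The E746-E750 hypoxic arrays are set beside these values, with the caution that their difference is taken from the same 2 WT arrays. SDF2L1 read 11.81 and 11.64 in E746-E750, DNAJB9 10.79 and 10.39, CRELD2 11.29 and 11.11, and DNAJB11 12.61 and 12.52, each between the WT and L858R readings. AGR2 read 10.96 and 10.86 and CEACAM1 8.56 and 8.63, also between them. FOS read 9.25 and 9.59 and EGR1 9.39 and 8.82 there, and PGAM1 8.39 and 6.99. The ACTB probe that was low in L858R read 7.94 and 7.34 in E746-E750. Over the genes called higher the median of E746-E750 minus WT was 1.33, and over those called lower it was -2.56. The median over all genes was 0.13.

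In the authors' processed values all 52 genes called higher and all 101 called lower had the same sign. The processed values come from the same arrays, and these genes were selected for large differences, so the shared sign is largely fixed by the selection. The differences of the 2 tables had a correlation of 0.932 across genes. Fitted in the same way, those values called 53 genes, 7 higher and 46 lower, and 42 of them were among the 153. No gene was called higher by 2 agreeing probes there: AGR2 was at 3.33 (adjusted p = 0.0519) and CEACAM1 at 3.73 (adjusted p = 0.0735). Of the named genes, DNAJB11 kept its call in 23 of 24 alternatives, all but the fit of only the 4 arrays compared, in which no gene was called. ENSA, PEDS1-UBE2V1, PSMC4, FADS2, AP1S1, ANXA8L1 and FLG kept theirs in all but that fit of the 23 in which they were tested; the filter that required detection on all 4 arrays removed them. The other called genes named here lost it in the processed values as well, SDF2L1, DNAJB9 and CRELD2 among them (adjusted p = 0.0838, 0.142 and 0.0609 in limma). PGAM1 also lost it with a trended, robust spread (adjusted p = 0.121), and EGR1 with detection required on all 4 arrays (adjusted p = 0.0565). The call of ANKRD37 was lost in 14 of 24 alternatives, that of DUSP1 in 8, those of POGLUT1 and SLPI in 6 each and that of LCE1B in 4, always with the same sign. The alternatives that left out an aerobic or an E746-E750 array kept the difference itself and changed only its estimated spread. Those that left out an L858R hypoxic array took away the spread between the L858R arrays, so a call could hardly be lost there.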

How the data were processed

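Biotin-labelled cRNA of 12 HBEC samples was read on Illumina bead arrays. The deposited raw table holds linear intensity for 47323 probes without background subtraction, and it lists neither detection p-values nor control probes. The authors' deposited processed table holds log2 values, which share the same quantiles and a median of 3.11; how their background was treated is not stated in any source used, and the ranks within an array matched those of the raw table (Spearman correlation 1). Both tables were used whole.

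In limma 3.58.1 (R 4.3.3), normexp with offset 50 removed background from the raw intensities, and quantile normalization followed on the log2 scale. The noise peak of each array (density bandwidth 0.02 log2) was mirrored at its mode, and its percentile 99 was the detection level. Of all probes 21261 passed it on 2 or more of the 12 arrays and were kept, of which 16023 had 1 gene. On the platform 30113 probes had 1 gene, 8 had several and 17202 had none, and the latter 2 kinds were not analysed here. The brightest probe stood for each of 11926 genes. The 6 group means were fitted with lmFit, arrayWeights (1 weight per group) and eBayes (6 residual and 7.98 prior degrees of freedom), two-sided; a second fit over the 16023 probes gave the genes called by 2 agreeing probes. The model was also run on simulated data with normal noise at the fit's own spread and weights. Those data held no losses on single probes, so that run cannot show how the model handles them.

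The comparison, the 31 gene lists and the rule for named genes were chosen with earlier results of these data known. The rule took, of the genes called by 2 agreeing probes, up to 10 in each direction, then up to 3 genes of each list that were called, by 2 probes or with 1 kept probe, the 5 highest and 5 lowest called genes with 1 probe, and EGFR, VEGFA, BRCA1 and ACTB; symbols for unnamed loci, pseudogenes and numbered families were passed over. A list is given by its counts and median. Alternatives were another spread, background, offset, normalization, filter, probe rule, variance prior, set of arrays or pairing, the processed values, and each array left out in turn. The number of arrays limits the precision.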

Additional observations from a re-analysis of the deposited data

Results flagged for a closer look

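For 28 of the named genes the difference between L858R and WT depended on oxygen by the interaction test of the limma fit, adjusted over 11926 genes, of which 1.73% passed. Nearly all named genes were picked because their hypoxic difference passed, and the interaction contains that difference, so how many passed says little beyond it. Values are the hypoxic difference minus the aerobic one on the log2 scale, n = 2 arrays in each of 4 groups. In the 28 genes both L858R hypoxic arrays lay on the same side of both WT hypoxic arrays.

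Upward, the ER genes were DNAJB9 at 3.53, SDF2L1 at 3.23, CRELD2 at 3.15, DNAJB11 at 2.94, AGR2 at 2.82 and POGLUT1 at 2.12. Among mucosal and surface genes LCN2 was at 3.20, DMBT1 at 2.81 and CEACAM1 at 2.46, and among cornified genes FLG was at 3.11, LCE1C at 3.05 and LCE1B at 1.90. FLG was detected on neither WT hypoxic array, so its value is that of the fit and no measured size.

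Downward, the immediate early genes were at -3.36 for FOS, -2.43 for EGR1 and -2.20 for DUSP1. Genes read low by 2 agreeing probes were PGAM1 at -5.57, RPL29 at -4.71, ENSA at -4.14, PEDS1-UBE2V1 at -3.50, PSMC4 at -3.45, RPS7 at -3.23 and SCAND1 at -2.93. Genes with 1 probe were FADS2 at -4.74, AP1S1 at -4.61, RNA18SN5 at -4.02, ANXA8L1 at -3.81, TNFRSF12A at -3.01 and the HIF target ANKRD37 at -2.55. PSMC4, FADS2 and ANXA8L1 were detected on neither L858R hypoxic array, so their values too are those of the fit and no measured sizes. With 2 arrays in a group no sample could be tested as an outlier within its group.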

How the results depend on the processing

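The count of called genes (153), the count by 2 agreeing probes (22) and the oxygen-dependent count (206) moved with how the spread was set, with the filter and with the arrays kept. With no weights they were 2595, 255 and 925. With no filter on dim probes they were 744, 80 and 749, and with detection required on all 4 arrays compared they were 31, 2 and 47. The authors' processed values gave 53, 9 and 63. Median centring gave 246 called genes, with 51.2% higher against 34%, and offset 16 gave 132 oxygen-dependent genes. With only the 4 arrays compared, limma called 0 genes and 0 by 2 probes, with 1534 genes at an unadjusted p under 0.05. Leaving out 1 array at a time gave 124 to 8466 called genes, 17 to 979 by 2 probes and 116 to 7943 oxygen-dependent genes. The highest were without L858R hypoxic replicate 1 (8466, 979 and 7943), then without L858R hypoxic replicate 2 (5021, 632 and 4403); a lone array is then assumed to vary like the other groups. Without WT hypoxic replicate 1 the count was 246, and without L858R aerobic replicate 1 or 2 the oxygen-dependent count was 130 or 116.

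The replicate numbers share only a number in the labels. Replicate 1 of WT hypoxic and of L858R hypoxic deviated from their group means with a correlation of 0.106 over genes. With the replicate number as a block the counts were 155, 19 and 202, and 146 of the 153 genes were called. Of the genes named, ANKRD37 alone lost its call there (adjusted p = 0.0524). The sign turned for genes that did not pass: NET1 was at 0.00448 with cyclic loess and from -0.528 to 0.256 without 1 or the other L858R hypoxic replicate, EGFR from -0.975 to 0.237 and BRCA1 from -0.0851 to 0.950 in the same fits, and ACTB at 0.0578 with cyclic loess. The cause was not tested.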

Other observations

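Beyond the lists, the called genes included members of the secretory pathway in both directions; those given here were chosen after their values were seen. SEC11C, SRPRB and SLC35B1 were higher, with 1 kept probe each. SEC11C, a catalytic subunit of the signal peptidase, read 9.72 and 9.81 on the WT hypoxic arrays and 11.60 and 12.12 on the L858R hypoxic arrays (2.09 ± 0.46, adjusted p = 0.0417 in limma). SRPRB, the membrane anchor of the signal recognition particle receptor, read 8.33 and 8.66 in WT and 10.28 and 10.73 in L858R (2.01 ± 0.43, adjusted p = 0.0366). SLC35B1, a nucleotide transporter of the ER membrane, read 9.79 and 9.83 in WT and 11.89 and 11.86 in L858R (2.06 ± 0.36, adjusted p = 0.0118). In the aerobic lines these genes differed by -0.13, -0.24 and -0.06. Called lower were SSR2, a subunit of the translocon-associated complex, at -3.48 ± 0.66 (adjusted p = 0.019), and HM13, the signal peptide peptidase, at -2.64 ± 0.59 (adjusted p = 0.0455). GPAA1, a subunit of the GPI transamidase, was at -2.76 ± 0.59 (adjusted p = 0.0343), CNPY3, a chaperone of Toll-like receptors, at -2.23 ± 0.39 (adjusted p = 0.0118), and GET4, of the tail-anchored protein pathway, at -2.42 ± 0.44 (adjusted p = 0.0135). GPAA1 has 1 kept probe, SSR2, CNPY3 and GET4 have 2 each and HM13 has 3. None of them was among the genes called by 2 agreeing probes.

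Also chosen after their values were seen were MAP1LC3B, a marker of autophagosomes, at 10.03 and 10.17 in WT and 11.97 and 12.02 in L858R (1.90 ± 0.37, adjusted p = 0.0206), and GJB2, a gap junction protein, at 12.40 and 12.39 in WT and 9.03 and 9.96 in L858R (-2.91 ± 0.60, adjusted p = 0.0302). GJB2 was at -1.11 at 21% oxygen too. In SEC11C, SRPRB, SLC35B1, MAP1LC3B and GJB2 the groups were apart on all 4 arrays.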
